A study of Mus musculus with 2 samples.

Results

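Among the islet cells of 2-week-old mice, 519 of 8897 cells that passed the cell filters were led by glucagon and also carried a large share of pancreatic polypeptide-family transcripts. The cells were chosen by their Gcg, Ppy and Pyy levels. A cell belonged when Gcg took more of its unique molecular identifiers (UMIs, 1 per captured transcript) than Ins1 with Ins2, Sst, or Ppy with Pyy, when Gcg reached at least 10% and Ppy with Pyy at least 3% of its UMIs, and when it held fewer than 3 UMIs of the division genes Mki67 and Top2a. These are called PP-rich α cells below, and the 1209 Gcg-leading cells under 3% are called other α cells. The islets came from wild-type (WT) mice and from Npc1-/- littermates on the C57BL/6J background, which lack the lysosomal cholesterol exporter NPC1 in every tissue, and each genotype was 1 library made from 3 pooled females of 2 weeks. The WT library held 8569 cell barcodes and 114324626 UMIs, and the Npc1-/- library 7646 and 127122035, with 12 barcode sequences in common. Of these, 4628 and 4269 cells passed the filters, with a median of 18905 and 21381 UMIs. With 1 library for each genotype there is no replicate, so no difference between genotypes could be tested. Cell classes were not tested either, because they were drawn from the same cells by measured values and each had only 2 library sums. Every interval given is a 95% interval that covers counting error only.

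Glucagon is made by α cells and raises hepatic glucose output. Pancreatic polypeptide, the product of Ppy, and peptide YY, the product of Pyy, belong to the neuropeptide Y family of short peptides with a shared fold. In the mouse the PP cell is the main islet source of Ppy, while Pyy is found more widely in young islets, and both peptides act through Y receptors to restrain secretion and appetite. None of the 4 Y receptor genes in the fixed list reached 10 counts per 1e+06 UMIs (CPM) in the Gcg-leading cells. In the PP-rich α cells Npy1r gave 2 UMIs in WT and 3 in Npc1-/-, and Npy2r, Npy4r and Npy5r gave 0 in both.

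The 3 genes that chose the cells lie at 2 loci. Gcg (ENSMUSG00000000394) is at chr2:62474530-62483650 on the minus strand. Ppy (ENSMUSG00000017316, chr11:102099930-102101319) and Pyy (ENSMUSG00000017311, chr11:102106676-102107832) are neighbours on the minus strand of GRCm38, with 5.36 kb between them. Their transcripts shared 0 words of 20 bases among 497 from Ppy and 628 from Pyy. The 150 bases before each start site are shown because the genes were counted together in choosing the cells. They were taken from RefSeq promoters of GRCm38.p6, 5′ to 3′ on the gene's own strand, with capitals marking TATAA on the gene's strand, TAAT on either strand and CANNTG, which reads the same on both.
Gcg, chr2:62483654-62483803: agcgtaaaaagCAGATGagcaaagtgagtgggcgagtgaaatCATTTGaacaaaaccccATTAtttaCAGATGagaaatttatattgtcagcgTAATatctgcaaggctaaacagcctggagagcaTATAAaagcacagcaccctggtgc
Ppy, chr11:102101320-102101469: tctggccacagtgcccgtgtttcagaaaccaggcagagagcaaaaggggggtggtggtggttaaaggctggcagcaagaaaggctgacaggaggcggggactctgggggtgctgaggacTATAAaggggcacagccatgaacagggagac
Pyy, chr11:102107833-102107982: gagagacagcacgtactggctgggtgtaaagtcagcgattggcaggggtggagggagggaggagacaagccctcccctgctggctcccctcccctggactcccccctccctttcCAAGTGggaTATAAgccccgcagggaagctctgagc
All 3 windows held 1 TATAA, which 10.0% of 32817 promoter windows of this length held. Gcg held 2 TAAT and 3 CANNTG matches, Ppy held 0 of both, and Pyy held 0 and 1. TAAT was found in 37.8% of all windows and CANNTG in 47.7%.

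The PP-rich α cells made up 250 of 952 non-dividing Gcg-leading cells in WT, 26.3% (23.5 to 29.2%), and 269 of 776 in Npc1-/-, 34.7% (31.3 to 38.1%). The ratio of the Npc1-/- share to the WT share was 1.32 (1.14 to 1.52). As a share of all filtered cells they were 5.40% (4.77 to 6.09%) in WT and 6.30% (5.59 to 7.07%) in Npc1-/-. The share among Gcg-leading cells was higher in the Npc1-/- library by more than counting error over cells, whereas the intervals of the share among all filtered cells overlapped, and whether 2 pools of one genotype would differ as much cannot be told from these libraries. With every cell reduced at random to 5000 UMIs (7 WT and 2 Npc1-/- members were shallower and dropped out), the shares were 26.6% and 34.8%. A further 23 WT and 14 Npc1-/- dividing Gcg-leading cells also had at least 3% PP-family UMIs and are not counted among the members.

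**Figure D1:**
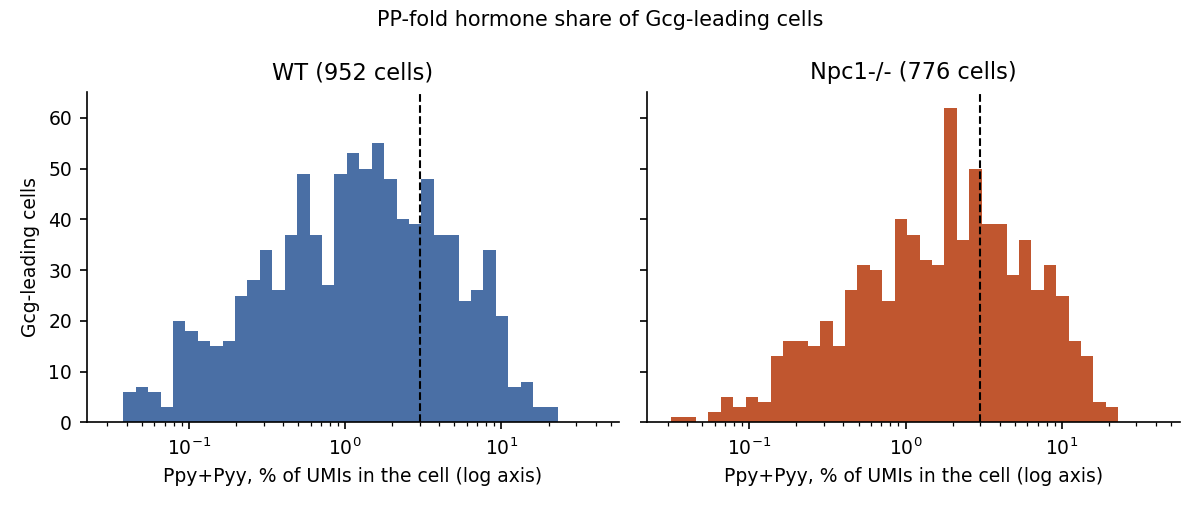
Histograms of Ppy plus Pyy as a percent of the UMIs of each non-dividing Gcg-leading cell (log axis), for 952 WT and 776 Npc1-/- cells, with a dashed line at the 3% threshold. Both distributions are continuous across the threshold, with 26.3% of WT and 34.7% of Npc1-/- cells to its right.

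Just inside the 3% threshold, between 3.0 and 3.5%, were 36 WT and 28 Npc1-/- cells, and just outside, from 2.5 to 3.0%, were 45 and 44. In WT, Tspan8, a tetraspanin used as a PP cell marker, stood at 164 CPM just inside and 69.8 CPM just outside, while in Npc1-/- it stood at 101 and 104 CPM. Sst in the same cells was at 5591 and 1829 CPM in WT and at 251 and 1256 CPM in Npc1-/-, and the part of Sst-carrying cells in the Tspan8 values was not tested.

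Gcg itself took a median of 28.4% of UMIs in WT PP-rich α cells, from 10.2% to 49.1%, and 29.6% in Npc1-/-, from 10.4% to 44.5%. The PP-family share had a median of 5.39% in WT with a highest value of 22.4%, and of 5.91% in Npc1-/- with a highest value of 20.4%. These values follow from the choice of cells. The members were as deep as or deeper than other α cells, with median UMIs of 17629 against 16558 in WT and 20385 against 17633 in Npc1-/-, ratios of 1.06 and 1.16.

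Pyy was the larger PP-family transcript in most members. Summed over the class, there were 0.374 Ppy UMIs for each Pyy UMI in WT (0.371 to 0.377) and 0.388 in Npc1-/- (0.386 to 0.391). Other α cells had 0.120 and 0.152, but 506 of 702 in WT (72.1%) and 325 of 507 in Npc1-/- (64.1%) held Ppy at or below the free RNA floor described below. These values follow from the hormones that chose the classes and are a description. Cells led by Ppy with Pyy, called PP-leading cells, had 1.001 and 0.988. Sst-leading cells, which also carry Pyy, had 0.324 and 0.269.

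Single members ranged from almost pure Pyy to mostly Ppy. Ppy made up a median of 17.6% of a cell's Ppy plus Pyy UMIs in WT, from 0.16% to 79.1%, and 18.0% in Npc1-/-, from 0.36% to 76.1%. Ppy made under 10% of the pair in 93 of 250 WT members and 104 of 269 Npc1-/- members, and 30% or more in 82 and 86. In PP-leading cells the same upper class held 318 of 384 and 337 of 419 cells.

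**Figure D2:**
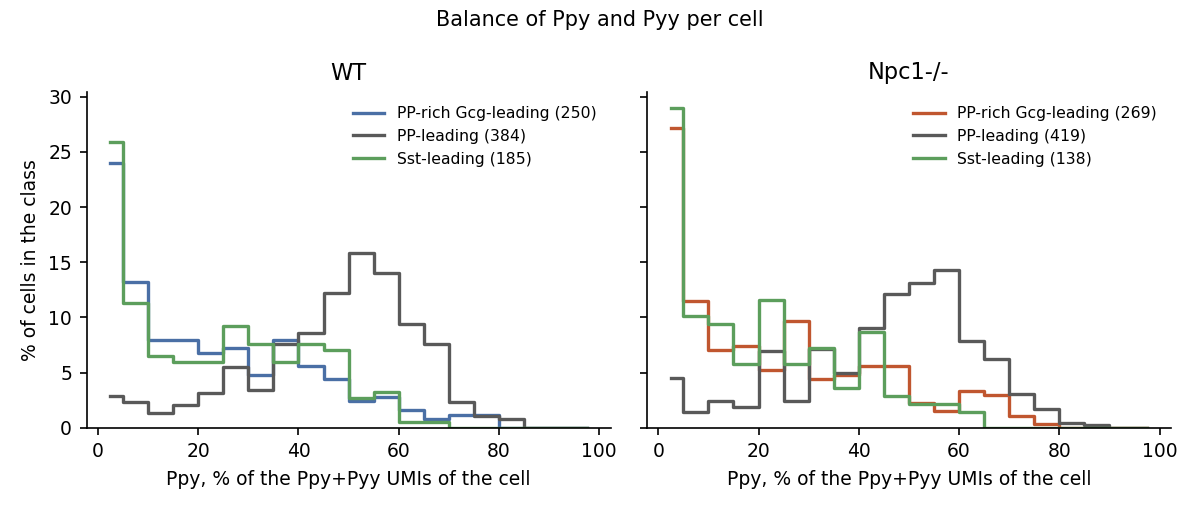
Percent of cells by the share of Ppy in each cell's Ppy plus Pyy UMIs (bins of 5 points) in PP-rich Gcg-leading, PP-leading and Sst-leading cells, with the number of cells in brackets. The PP-rich Gcg-leading cells pile up at low Ppy, with 37.2% of WT and 38.7% of Npc1-/- cells under 10%, whereas PP-leading cells centre near equal shares.

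Free RNA from lysed cells sets a floor for these transcripts, and endothelial cells, which should make neither hormone, show it. In 443 WT endothelial cells the 90th percentile of Ppy was 0.0874% of UMIs and of Pyy 0.0971%, at a median of 7840 UMIs a cell. None of the 250 WT members had Pyy at or below that floor, but 37 of them (14.8%) had Ppy at or below it. In Npc1-/-, where the floors were 0.0910% and 0.0971% in 452 endothelial cells with a median of 10285 UMIs, the counts were 0 of 269 for Pyy and 50 of 269 (18.6%) for Ppy. Pyy was among the values that chose the members, so its count of 0 is a description. The floor is a percent of UMIs taken from shallower cells and was not matched for depth. By this measure Ppy was not told apart from free RNA in these 37 and 50 cells.

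Part of the members carried a second hormone programme. In 23 WT and 26 Npc1-/- members Sst, the hormone of δ cells, reached 0.5% of UMIs or more, and the lowest of them was at 1.57% and 0.904%, against a highest value of 0.186% and 0.390% among the members left by the step described below. These cells held a median of 27751 UMIs in WT and 32014 in Npc1-/-, against 17174 and 19760 in members without signs of a second cell type. Their Gcg share was lower, with medians of 17.6% and 16.3%. Of the 23 WT cells 21 (91.3%, 72.0 to 98.9%) and of the 26 Npc1-/- cells 19 (73.1%, 52.2 to 88.4%) had doublet scores in the top share expected at this loading. Among members without signs of a second type 5 of 218 (2.29%) and 5 of 237 (2.11%) did, and among other α cells held to the same limits 7 of 689 (1.02%) and 6 of 498 (1.20%). All 5 such WT members lay among the 97 single-type members at 6% or more PP-family UMIs, and in Npc1-/- 1 of 103 did.

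**Figure D3:**
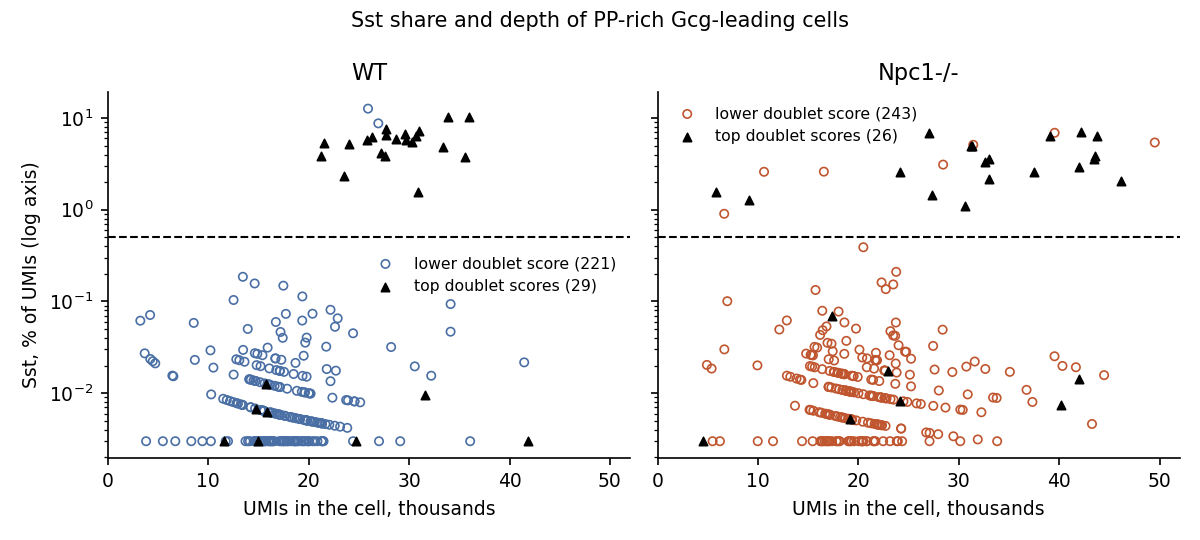
Sst as a percent of UMIs (log axis, cells at 0 drawn at 0.003%) against UMIs per cell for the 250 WT and 269 Npc1-/- members, with black triangles for the 29 and 26 members in the top doublet scores and a dashed line at 0.5%. The members above the line, 23 in WT and 26 in Npc1-/-, are mostly deep and mostly triangles.

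Of the members' UMIs of Hhex, the δ cell transcription factor, the Sst-carrying cells held 124 of 125 in WT and 114 of 118 in Npc1-/-, and of those of Ly6h 220 of 224 and 132 of 140. Hhex stood at 27.0 CPM in all WT members and 20.1 CPM in all Npc1-/- members, and at 0.263 and 0.607 CPM once members with at least 0.5% Sst, with at least 3% insulin, or with 3 or more endothelial marker genes were left out. Ly6h fell from 48.4 to 0.790 CPM in WT and from 23.8 to 1.62 CPM in Npc1-/- by the same step. With all members it ranked first by ratio among genes meeting the naming rule given under processing, which Sst did not meet. Sst, which the step itself limits, went from 8842 to 141 CPM in WT and from 5727 to 183 CPM in Npc1-/-, beside 154 and 151 CPM in other α cells treated likewise. That step left 218 WT and 237 Npc1-/- members, which are called single-type members here, and 689 and 498 other α cells. The limits of the step were set after the values had been seen, and the share of PP-rich cells was then 24.0% of WT and 32.2% of Npc1-/- cells, with 1.34 as their ratio.

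Across all 7547 genes at 10 CPM or more in either class of both libraries, 57 were higher in PP-rich than in other α cells by a log2 ratio of at least 0.5 in both libraries, 0.755% of those measured, and 33 were lower, 0.437%. Ratios are given relative to the median gene, with Gcg, Ppy and Pyy left out of the count because they chose the cells. Among single-type cells 7481 genes were measured, of which 37 were higher (0.495%) and 26 lower (0.348%). Of the 57 higher genes 27 were also higher in the single-type comparison, and of the 33 lower genes 16 were also lower. The values that follow, up to the comparison of genotypes, are for single-type cells unless said otherwise, and since both classes come from the same 2 libraries, the libraries are the only repeats.

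Tspan8 and Folr1, from the PP cell marker list, were higher in the members, but below the level of PP-leading cells. Tspan8 (chr10:115816832-115849893) was at 156 CPM in WT members against 44.4 CPM in other α cells, a log2 ratio of 1.86 (1.69 to 2.03), and at 123 against 55.7 CPM in Npc1-/-, 1.24 (1.06 to 1.41). In PP-leading cells under 0.5% Sst it was at 779 and 616 CPM. Folr1, a folate receptor in the same marker list, had log2 ratios of 0.99 (0.70 to 1.29) and 0.66 (0.36 to 0.96). Of the 9 genes in the PP cell list 3 were measured, and Tspan8 and Folr1 were the higher ones in both libraries. The largest share of Tspan8 UMIs from 1 cell was 4.04% in WT and 3.77% in Npc1-/-, so no single cell carried the difference.

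Tspan8 was graded with the PP-family share across all single-type Gcg-leading cells. From cells under 0.5% PP-family UMIs to cells at 6% or more, Tspan8 stood in WT at 27.9, 48.2, 56.1, 109 and 213 CPM, with class limits at 0.5, 1, 3 and 6%. In Npc1-/- the same 5 classes, of 140, 115, 243, 134 and 103 cells, had 43.5, 48.0, 66.1, 90.4 and 165 CPM. Fxyd3, a regulator of the sodium pump, went in the same classes from 30.9 to 85.7 CPM in WT and from 19.7 to 81.0 CPM in Npc1-/-.

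Cd36, the fatty acid and lipoprotein receptor, had the largest ratio among the genes called higher in the single-type comparison, and was named after its values were seen. It was at 32.1 CPM in WT members against 7.33 CPM in other α cells, log2 2.17 (1.76 to 2.59), and at 18.8 against 4.73 CPM in Npc1-/-, log2 2.07 (1.54 to 2.64). In PP-leading cells it was at 1.17 and 2.62 CPM, so that the members exceeded both neighbouring classes for this gene. Endothelial cells held Cd36 at 104 CPM in WT. The 7 endothelial markers, which also served to leave cells out of both classes, summed to 5.001 CPM in WT members and 6.37 CPM in other α cells, and to 4.66 and 6.43 CPM in Npc1-/-, and their part in the Cd36 ratio was not tested. The largest share of Cd36 UMIs from 1 member was 8.20% in WT and 7.53% in Npc1-/-.

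Iapp and Pdx1, from the β cell list, were also higher. Iapp, which encodes the islet amyloid polypeptide, was at 5129 against 2643 CPM in WT and 5678 against 2505 CPM in Npc1-/-, log2 ratios of 1.001 and 1.27. Pdx1, a transcription factor of β and δ cells, was at 20.005 against 10.2 CPM in WT, log2 1.02 (0.58 to 1.44), and at 12.6 against 6.43 CPM in Npc1-/-, 1.05 (0.51 to 1.6). Of the 12 genes in the β cell list 8 were measured and these 2 were higher in both libraries. Ins1 and Ins2 had log2 ratios between -0.01 and 0.13 in both libraries, and none of the list was lower. The β cell list summed to 16406 CPM in WT members and 14119 CPM in other α cells, and to 13301 and 10418 CPM in Npc1-/-.

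Several regulators and membrane proteins were higher in both libraries. Klf5, a Krüppel-like transcription factor, had log2 ratios of 1.47 (0.9995 to 1.94) and 1.22 (0.66 to 1.80). Mlxipl, the glucose-responsive transcription factor ChREBP, had 0.65 (0.31 to 0.98) and 0.80 (0.49 to 1.11). Wls, which carries Wnt ligands to the cell surface, had 0.90 and 1.28. Scn9a and Scnn1b, which encode sodium channel subunits, had 0.82 and 0.86, and 0.77 and 1.12. In the fixed list of excitability genes Scn9a alone of 9 measured genes was called.

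Neurog3, the factor that starts endocrine differentiation, was low in all Gcg-leading cells and higher in the members. It gave 27 UMIs in 218 WT members, 7.11 CPM, against 0.175 CPM in other α cells, and 46 UMIs in 237 Npc1-/- members, 9.31 CPM, against 1.13 CPM. It was under 10 CPM in single-type cells and so was not among the 7481 genes compared there. Sst-leading cells held 80.8 CPM in WT, and Hhex 392 CPM there against 0.263 CPM in these members. The part of δ cell RNA in the Neurog3 values was not tested. With all members Neurog3 was at 12.5 and 14.5 CPM, the 1 higher gene of 7 measured from the endocrine progenitor list. Gast, which encodes gastrin, was the 1 lower gene of that list, at 11.9 against 17.8 CPM in WT and 7.31 against 15.3 CPM in Npc1-/- with all members. Among single-type cells none of 6 measured genes of the list was past the limit in both libraries.

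Of 6 measured genes in the cell cycle list 3 were higher, beside 0.495% of all genes. All these cells held fewer than 3 UMIs of Mki67 and Top2a. Mcm5 and Mcm6, subunits of the replicative helicase, and Hells, a chromatin remodeller of dividing cells, were the 3 past the limit in both libraries. Mcm6 was at 28.7 against 15.8 CPM in WT and 29.4 against 21.9 CPM in Npc1-/-. For Mcm5 and Hells 1 WT cell gave 20% and 15.0% of the members' UMIs. With all members 1 of 5 measured genes of the list, Mcm5, was higher. The list, mostly Ccnd2, summed to 1490 CPM in WT members and 1547 CPM in other α cells. In Npc1-/- it summed to 1514 and 1521 CPM.

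**Figure D4:**
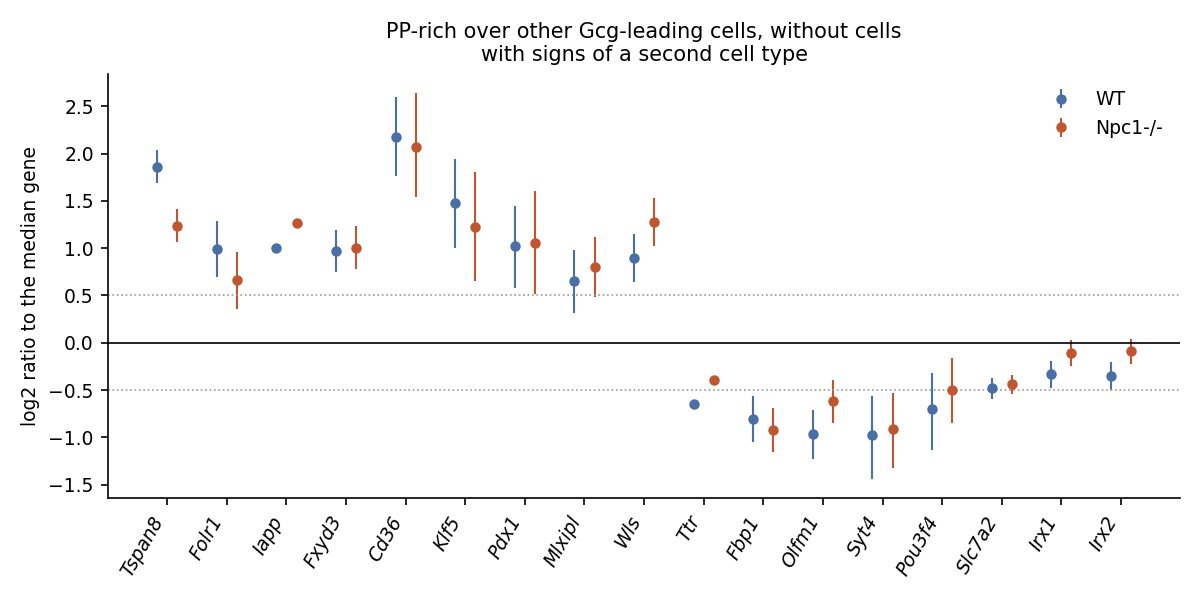
Log2 ratio of PP-rich over other Gcg-leading cells, relative to the median gene, in WT and Npc1-/-, for single-type cells, with 95% counting intervals and dotted lines at 0.5 and -0.5. Tspan8 to Wls lie above the upper line in both libraries, Fbp1, Olfm1 and Syt4 below the lower line and Irx1 and Irx2 between the lower line and 0.

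Irx1 and Irx2, homeobox factors of α cells, stood closer to other α cells than to PP-leading cells. Irx1 was at 129 against 168 CPM in WT and 138 against 158 CPM in Npc1-/-, and in PP-leading cells at 14.0 CPM in both libraries. Irx2 was at 123 against 162 CPM in WT and 134 against 152 CPM in Npc1-/-, beside 30.6 and 29.7 CPM in PP-leading cells. Both factors were thus present in the members at several times the level of PP-leading cells and somewhat below that of other α cells.

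Of the 11 genes in the α identity list 1 was lower in the members by the limit of 0.5 in both libraries. The median log2 ratio of the list was -0.35 in WT and -0.24 in Npc1-/-, with 8 below the median gene in both libraries, and Dpp10, a potassium channel partner, was the 1 gene of the list called lower. Ttr, the thyroid hormone carrier abundant in α cells, was at 16893 against 27397 CPM in WT, log2 -0.65, and at 17614 against 24596 CPM in Npc1-/-, log2 -0.39, which is inside the limit of 0.5. Pou3f4, an α cell POU factor, was at 16.3 against 27.6 CPM and 19.6 against 29.5 CPM, with log2 ratios of -0.70 and -0.495, the second inside the limit. Across the 5 classes of PP-family share Ttr fell from 32397 to 13283 CPM in WT and from 28971 to 13363 CPM in Npc1-/-.

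Fbp1, Syt4, Olfm1 and Mgst1 were lower in both libraries. Fbp1, the gluconeogenic fructose-bisphosphatase, had log2 ratios of -0.80 (-1.05 to -0.57) and -0.92 (-1.15 to -0.69). Syt4, a synaptotagmin of secretory vesicles, had -0.98 and -0.91, and Olfm1, a secreted olfactomedin, had -0.96 and -0.62. Mgst1, a membrane glutathione transferase, had -1.17 and -0.90. Slc7a2, the arginine transporter, was at 210.05 against 303 CPM and 249.6 against 360 CPM, with ratios of -0.48 and -0.44, inside the limit in both. Adcy1, an adenylate cyclase, had -1.05 in WT and -0.48 in Npc1-/-, the latter inside the limit.

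Sparc, Rgs5 and Mgp, genes abundant in endothelial and mural cells, were also lower in both libraries. Sparc, a matrix protein with 8997 CPM in WT endothelial cells, was at 3.42 against 27.9 CPM in WT and 6.68 against 45.0 CPM in Npc1-/-. The 8 stellate and fibroblast markers summed to 10.0 CPM in WT members and 46.2 CPM in other α cells, and to 19.03 and 37.9 CPM in Npc1-/-, with Col1a2 the most abundant in members and Pdgfra and Col1a1 at 0. Their part in the other lower genes was not tested.

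Several fixed lists held no gene past the limit, which 0.495% of all genes passed upward and 0.348% downward, so that 0 in a short list is near the background. This was so for 25 lysosomal, 14 sterol, 18 ER folding and stress, 23 nuclear OXPHOS, 11 mitochondrially encoded, 11 exocytosis, 8 granin and 7 prohormone processing genes. With all members Scg2, of the granin list, was higher in both libraries. In the immature endocrine and imprinted growth list Cd24a and Nnat were higher of 8 measured with all members, and 0 of 6 among single-type cells. ER folding genes had 13 of 18 above the median gene in both libraries and 0 below, with list medians of 0.11 and 0.13. Mitochondrially encoded genes had 10 of 11 below it in both, with medians of -0.09 and -0.10. Lists for amino acid transport, antigen presentation and glucagon and incretin signalling also held no called gene, and over all genes measured the median is 0 by construction. Marker lists for Schwann cells (12.6 CPM in WT members, 9.31 CPM in Npc1-/-), macrophages (51.9 and 77.3 CPM, nearly all C1qa, with Adgre1 at 0), lymphocytes and neutrophils (2.90 and 1.01 CPM) and acinar cells (39.0 and 47.8 CPM, with Pnlip at 0) summed to low levels, and the duct list (203 and 221 CPM) was mostly Krt7, with 165 and 184 CPM.

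Ghrl transcripts were higher in the members than in other α cells of the Npc1-/- library, to a degree that hung on the threshold. Ghrl, the hormone of ε cells, was at 287 against 267 CPM in WT, log2 0.15 (0.04 to 0.25), and at 322 against 151 CPM in Npc1-/-, log2 1.18 (1.07 to 1.29). PP-leading cells under 0.5% Sst held 626 CPM in the WT library but 252 CPM in the Npc1-/- library. With all cells the log2 ratios were 0.09 and 1.03, and with the threshold at 5% they were 0.48 and 0.32, so the order of the libraries turned. Between libraries, with all cells at the 3% threshold, the log2 ratio of Npc1-/- over WT was 0.07 in members and -0.87 in other α cells. The difference between libraries was not tested.

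The members were next set beside PP-leading cells under 0.5% Sst. Of 4815 genes at 20 CPM or more in either class, 77 were higher in members by a log2 ratio of at least 1 in both libraries, 1.6% of those measured, and 54 were lower, 1.12%. The largest ratios in members were those of Gfra3, a neurotrophic factor receptor, at 44.2 against 3.12 CPM in WT and 25.9 against 1.22 CPM in Npc1-/-, Dapl1, Irx1, Vgf, Sim1, 5330439M10Rik and Ttr. The lowest were those of Limch1, Pcsk1, Nnat, S100a10, Folr1, Sez6l, Hadh, a fatty acid oxidation enzyme, and Tspan8. The genes in this paragraph and the next were picked after their values had been seen.

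Several genes abundant in PP-leading cells stood in members nearer to other α cells. Pcsk1, the prohormone convertase, stood in PP-leading cells at 71.2 CPM (WT) and 91.8 CPM (Npc1-/-), but at 7.90 and 6.48 CPM in members and 9.60 and 4.73 CPM in other α cells. Hadh was at 160.3 and 198 CPM in PP-leading cells, 31.8 and 33.2 CPM in members and 30.04 and 28.3 CPM in other α cells. Nnat and S100a10 were under 10 CPM in members and in other α cells of both libraries. With all members, however, Nnat was called higher than in other α cells in both libraries. Hadh then ranked 7 by ratio among the named genes higher in PP-rich than in other α cells. Among single-type cells the members thus lay between other α cells and PP-leading cells for Tspan8, Folr1 and Fxyd3. They lay near the level of other α cells for Pcsk1, Hadh, Nnat and S100a10. The part of doublets between α and PP cells was not tested beyond the doublet scores above and these values.

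Members rich in Ppy and members poor in Ppy were next compared. Single-type members with 30% or more Ppy numbered 71 in WT and 73 in Npc1-/-, and those under 10% numbered 84 and 98, at similar depths of 17858 and 17174 median UMIs in WT and 19760 and 19455 in Npc1-/-. The Ppy-high cells also had the larger PP-family share, with medians of 7.73% against 4.12% in WT and 8.47% against 4.20% in Npc1-/-, so balance and total share cannot be told apart here. Of 7371 genes measured, 75 were higher in the Ppy-high cells in both libraries, 1.02%, and 79 lower, 1.07%. Tspan8 was at 194 against 109 CPM in WT, log2 0.87 (0.58 to 1.18), and at 189 against 91.6 CPM in Npc1-/-, 1.005 (0.74 to 1.28). Folr1 and Ffar1, a fatty acid receptor, were higher as well, with ratios of 0.85 and 0.75, and of 0.89 and 0.77.

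Ttr and Vgf went the other way. Ttr was at 12136 CPM in Ppy-high and 21006 CPM in Ppy-low WT members, log2 -0.76, and at 10620 and 23253 CPM in Npc1-/-, -1.17. Vgf, a granin-like secreted protein, was at 42.6 against 98.6 CPM and 46.2 against 102 CPM. Ppy-low members were near other α cells for Ttr in Npc1-/-, where these had 24596 CPM. In WT they lay lower, with Ttr at 2.10% of UMIs against 2.74% in other α cells. Cd36 was above other α cells in both, at 26.8 and 20.6 CPM in WT and 19.5 and 11.3 CPM in Npc1-/-. Iapp was lower in Ppy-high members of WT, log2 -0.51, and not in Npc1-/-, 0.12.

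The last comparison set Npc1-/- members against WT members, with all 250 and 269 members and all other α cells. Npc1 itself gave 53 UMIs in WT members, 11.4 CPM, and 24 UMIs in Npc1-/- members, 4.08 CPM, log2 -1.47 (-2.25 to -0.77), while other α cells had 8.31 and 6.80 CPM, log2 -0.34. Transcripts of the gene were thus still counted in the knockout library. The sources used here do not give which part of the gene is deleted, and a 3′ tag outside it does not check the label. Xist stood at 675 and 609 CPM over whole libraries and the Y-linked Ddx3y and Eif2s3y at 0 UMIs, as in females.

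Of 7730 genes at 10 CPM or more in either library's members, 157 were higher in Npc1-/- by a log2 ratio of at least 0.5, 2.03%, and 185 lower, 2.39%. Among single-type members 234 were higher and 216 lower. These are 218 and 237 cells with fewer UMIs, and the larger counts were not tested as a larger difference. Of the 157 higher genes 139 were measured in other α cells, and 20 were past 0.5 there. Of the 185 lower genes 151 were measured there and 52 were past -0.5. Over all 7800 genes measured in other α cells, 1.45% were past 0.5 and 1.65% past -0.5, and both classes of a genotype come from 1 library. The hormones that chose the cells had log2 ratios of 0.05 for Gcg, 0.12 for Ppy and 0.07 for Pyy, which the shared limits of the rule largely fix.

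Immediate early and heat shock genes held more lower genes than any other fixed list. Of the 17 measured genes in that list 15 were lower in Npc1-/- members and none higher, with a list median of -1.16 (14 of 16 and -1.12 in single-type members), and the same count of 15 was lower in other α cells, with a median of -1.01. Fos, an immediate early transcription factor, was at 458 CPM in WT members but 205 CPM in those of Npc1-/-, and Jun at 588 and 332 CPM. Hspa1a, an inducible chaperone, was at 218 and 61.9 CPM, log2 -1.81 (-1.99 to -1.64), and Dnajb1, its partner, at 130 and 35.0 CPM, log2 -1.88. Hspa1a and Hspa1b are near-identical copies, so that counts of each are uncertain. In endothelial cells the list median was -0.40. These genes also respond to tissue dissociation, and since each genotype was 1 preparation, handling and genotype cannot be told apart.

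Of 16 measured sterol synthesis and uptake genes 4 were higher in Npc1-/- members and none lower. NPC1 releases cholesterol from lysosomes, and cells that sense low sterol raise synthesis and uptake genes. The list median was 0.38, beside 8 higher and a median of 0.48 in other α cells and a median of -0.10 in endothelial cells. In single-type members 6 of 16 were higher, with a median of 0.36. The 4 among all members were Fdps and Msmo1, enzymes of sterol synthesis, Insig1, a sterol-sensing regulator, and Stard4, a sterol carrier. Fdps was at 45.1 and 66.1 CPM, log2 0.55 (0.31 to 0.80), and Msmo1 at 17.7 and 28.1 CPM, 0.66 (0.27 to 1.07). Soat1, which esterifies cholesterol, was at 15.98 and 26.5 CPM, log2 0.73 (0.32 to 1.15), and was also among the genes higher in PP-rich than in other α cells.

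Mgst1 had the largest ratio among genes of at least 20 CPM, from 13.4 to 34.7 CPM, log2 1.37 (0.96 to 1.81), and went the same way in other α cells, from 29.3 to 70.6 CPM. Uap1l1 (log2 1.08), Adcy1 (0.93), Riiad1 (0.79) and Per3 (0.72), a clock gene, had smaller ratios in other α cells, of 0.37, 0.36, 0.04 and 0.14. Gstp1 and Tmsb15b2, with 0.82 and 0.70, have close copies in the genome, and their counts are uncertain. Gem, a small GTPase that restrains calcium channels, had the lowest ratio at the same level limit, from 32.6 to 7.65 CPM, log2 -2.08 (-2.60 to -1.60), and -1.10 in other α cells. Gm47283, which GENCODE places on chromosome Y beside the pseudoautosomal region, fell from 65.9 to 16.8 CPM in members, from 72.6 to 15.0 CPM in other α cells and from 33.8 to 12.4 CPM in endothelial cells.

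**Figure D5:**
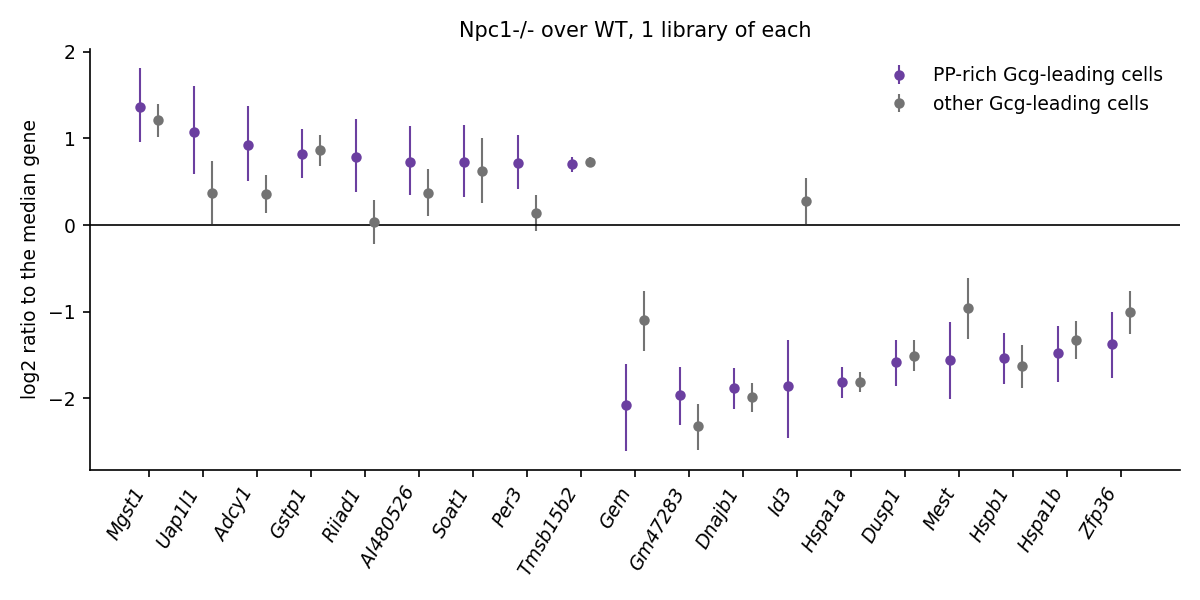
Log2 ratio of Npc1-/- over WT, relative to the median gene, for genes among the 10 highest and the 10 lowest in PP-rich Gcg-leading cells (purple) and the same genes in other Gcg-leading cells (grey), with 95% counting intervals and 1 library of each genotype. Id3 lies at -1.86 in PP-rich cells and at 0.27 in other α cells, and the heat shock genes Dnajb1, Hspa1a, Hspb1 and Hspa1b lie below -1 in both classes.

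Id3, an inhibitor of helix-loop-helix factors, was the 1 gene plotted there with opposite directions in the classes, at 23.1 and 6.29 CPM in members and 20.8 and 26.2 CPM in other α cells. Endothelial cells held it at 1532 and 1753 CPM. The endothelial markers summed to 37.1 and 12.6 CPM in all members and to 44.5 and 107 CPM in all other α cells. Their part in the Id3 ratios was not tested. Mest, an imprinted gene, was at 31.1 and 10.5 CPM in members and 20.3 and 10.9 CPM in other α cells.

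Insulin transcripts in the members were lower in Npc1-/-. Ins2 stood at 8538 and 5738 CPM, log2 -0.57, and Ins1 at 3636 and 2149 CPM, log2 -0.76. Both were also lower in other α cells, where Ins2 stood at 8023 and 5184 CPM. In endothelial cells they were lower too, with Ins2 at 12020 and 6580 CPM, log2 -0.89. The members lay below the endothelial level of Ins2 in both libraries. Pdx1 was lower as well, with a log2 ratio of -0.69 in members and -0.73 in other α cells. Pcsk1 had -0.96 in all members but -0.30 in single-type members, where it was under 10 CPM. No gene of the lists for lysosome, OXPHOS, mitochondrially encoded genes, ER folding, α identity, exocytosis, excitability or antigen presentation was past 0.5 in either direction in all members, with list medians between -0.17 and 0.09. In single-type members Creld2, of the ER folding list, had -0.65 and B2m, of the antigen presentation list, 0.59. Of the 18 ER folding genes 15 were below the median gene in all members. In other α cells 16 of 18 were below it, and in endothelial cells 15 of 17 measured.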

How the data were processed

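Single islet cells of 2-week-old mice (1 WT and 1 Npc1-/- library, 3 females pooled in each) were sequenced by the authors on a droplet platform. The submitters' processing notes name Cell Ranger 3.1.0, Seurat 4.0.3 and mm10, and the deposited filtered matrices hold raw UMI counts per gene and cell. Cells with over 1000 genes, under 50000 UMIs, under 10% mitochondrial and at most 0.1% haemoglobin UMIs were kept. Counts were summed per library and class and given as CPM, and log2 ratios used 0.5 added counts and were centred on the median gene. With 1 library a genotype no test was made. Shares carry Clopper-Pearson, levels Poisson and ratios of UMI counts conditional binomial 95% intervals, for counting error only. The ratio of the 2 shares carries a normal interval on the log scale. Doublets were scored with Scrublet (scanpy 1.11.5), and none were removed in the main values. The top scores at 0.8% per 1000 barcodes were marked, 317 WT and 261 Npc1-/- cells, against 85 and 80 by its own threshold. Endothelial cells had at least 4 of 7 markers. Gene positions are from GENCODE vM21 (30934 of 31053 identifiers matched). TMM factors came from edgeR 4.0.16. Scripts were tested on simulated data. Named genes were the fixed lists, the 12 highest and 12 lowest ratios between classes and the 10 highest and lowest between libraries, at 20 CPM or more and on one side of the median gene under every planned choice of cells. Members and lists were chosen with earlier results of these data known. A few genes that the rule names are not reported here.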

Additional observations from a re-analysis of the deposited data

Results flagged for a closer look

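Among the listed genes, 3 lay on opposite sides of the median gene in the libraries when PP-rich were compared with other Gcg-leading cells, with counting intervals that exclude 0 in each. Slc38a5, a glutamine transporter of α cells, had a log2 ratio of -0.33 in WT and 0.21 in Npc1-/-, Vwa5b2 had -0.17 and 0.24, and Pcsk2, the proglucagon convertase, had -0.0381 and 0.0627. The differences between libraries were not tested, and in WT 1 cell gave 8.32% of the Slc38a5 UMIs of single-type members. Above the limit of 50000 UMIs lay 2 further Npc1-/- cells and no WT cell that met the other criteria of the class.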

How the results depend on the processing

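The higher Npc1-/- share of PP-rich cells kept its direction under every alternative, with ratios from 1.25 (under 1% insulin and Sst) to 1.45 (threshold of 5%). The setting under 1% insulin and Sst left 103 of 250 WT members but 221 of 269 Npc1-/- members, so it filtered the libraries unequally. Counts of genes past a fold moved under several settings. Of genes higher in PP-rich than in other α cells (57), 37 were found between 10000 and 30000 UMIs, 35 under 0.5% Sst, 37 without signs of a second cell type, 109 at 5 CPM, 12 at 50 CPM and 21 at a log2 of 1.0. Of genes lower (33), the counts were 54 at the 5% threshold, 63 under 1% insulin and Sst, 78 at 5 CPM, 7 at 50 CPM, 9 at a log2 of 1.0 and 68 against cells under 1%. Of genes higher in Npc1-/- members (157) they were 341 at the 5% threshold, 434 under 1% insulin and Sst, 373 at 5 CPM, 9 at 50 CPM and 6 at a log2 of 1.0, and of genes lower (185) they were 364, 342, 411, 29 and 29. Ppy per Pyy UMI in WT was 0.338 at the 2% and 0.448 at the 5% threshold, 0.380 between 10000 and 30000 UMIs, 0.405 under 1% insulin and Sst, 0.381 under 5% mitochondrial and 0.365 under 0.5% Sst. In Npc1-/- it was 0.362 and 0.470 at the thresholds, 0.395 with expected doublets removed, 0.403 between 10000 and 30000 UMIs, 0.398 under 1% insulin and Sst and 0.395 under 5% mitochondrial. The Sst ratio in WT, 4.99 with all members, was -0.10 under 1% insulin and Sst, -0.0324 under 0.5% Sst and -0.0794 without signs of a second cell type, settings that remove Sst-carrying cells by construction. Of 820 values of named genes, 617 moved by less than their interval, 200 by more, and 3 changed sign. Settings on 0.5% Sst, on a second cell type and on cells under 1% were chosen after seeing the data. No paired analysis of genotypes was possible because each genotype had 1 library. The classes, chosen by measured values, were compared within each library without a test. Replicate spread is unknown and genes under 10 CPM rest on few UMIs.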
